A study of Rattus norvegicus with 6 samples.

Results

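The genes described here are the drug and organic ion transporters of rat liver, taken as every gene on the array whose symbol begins with Slco, Slc22a, Abcb, Abcc or Abcg. Abcb4, Abcb11, Abcg5 and Abcg8, which carry phospholipid, bile salts and sterols into bile, were left out by that rule. It gave 56 genes with 105 probes, out of 15284 genes with 27460 named probes. They were 14 Slco, 18 Slc22a, 7 Abcb, 10 Abcc and 7 Abcg genes. A further 13 symbols of the rule are listed in the rat gene reference but had no probe named through their accessions, and are not analysed here.

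Hepatocytes take up drugs, hormones and bile pigments from blood through carriers on the sinusoidal membrane and export them, often after conjugation, through ATP-driven pumps. The organic anion transporting polypeptides (Slco genes) and the organic cation, carnitine and organic anion carriers (Slc22a genes) serve uptake for the most part. The ABC transporters include P-glycoprotein (Abcb1a and Abcb1b), the multidrug resistance-associated proteins (most Abcc genes) and the breast cancer resistance protein (Abcg2), which pump drugs and conjugates out of the cell into bile or back into blood. Several Abcb genes encode carriers of mitochondria or lysosomes.

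Livers came from 9-week-old male Sprague-Dawley rats (Crl:CD(SD)), an outbred stock, killed after isoflurane anaesthesia (n = 3) or after CO2/O2 anaesthesia (n = 3). Each array is taken as 1 rat; the labels number replicates without naming animals, so p-values measure the spread between these samples, part of which may be technical. Isoflurane is a volatile anaesthetic given by inhalation, while CO2/O2 is a mixture of gases that makes rodents unconscious. All rats of both groups had received corn oil at 5 mL/kg/day, for 3 days by the design text and for 9 weeks by the treatment protocol, so the length of dosing is uncertain. Rats without anaesthesia are not among these groups, so the effect of either agent alone cannot be told apart from that of the other. The comparison asks whether the choice of anaesthesia at killing goes with the hepatic level of these transcripts. Values are log2 signal relative to the 75th percentile of the array's probes, so 0 is that percentile and a difference of 1 is 2-fold.

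Of the 56 transporter genes, 45 were detected in liver, where detected means a probe well above background in every rat of 1 group or both. All 7 Abcb genes were detected, as were 9 of 10 Abcc, 6 of 7 Abcg, 10 of 14 Slco and 13 of 18 Slc22a genes. The signal was above background on all 6 arrays for 43 genes, and the other 2 detected genes were Abcb1a and Abcg3l3. Of the 11 undetected genes, 6 were above background on no array. Those were Slco1c1, a thyroxine carrier known from the blood-brain barrier, Slco4c1, known from kidney, the testis gene Slco6c1, the organic cation carrier Slc22a3, and the orphan genes Slc22a14 and Abcc12. Slco1a3, Slc22a2, Slc22a22, Slc22a24 and Abcg4 were called above background on at least 1 array but not on a whole group. Detection calls kept outlier-marked spots. Slc22a2 was called on 1 isoflurane array by 1 probe, whose spot on isoflurane replicate 2 was outlier-marked. That probe read -6.46 and -6.70 in the other isoflurane livers, so its call may rest on the marked spot. Slco1a3 and Slc22a2, the organic cation carrier OCT2, are known mainly from kidney.

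**Figure D1:**
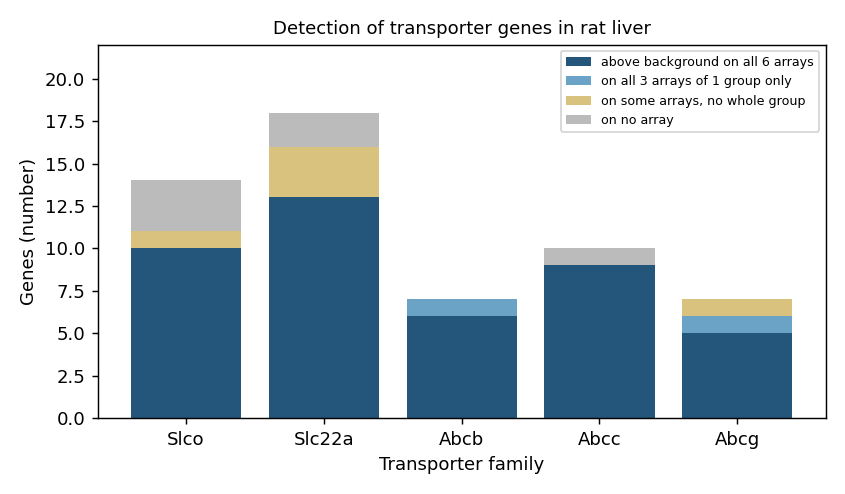
Number of genes (y axis) in each transporter family (x axis), divided by the arrays on which a probe was well above background. All 7 Abcb genes were detected, while 4 of 14 Slco and 5 of 18 Slc22a genes were not.

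In both groups the mean signal lay above the 75th percentile for 25 of the 45 detected genes, and more than 16 times above it (4 log2 units) for 10. Among those were the uptake carriers Slco1a1, Slco1a4 and Slco1b2, the organic anion carriers Slc22a7 and Slc22a8, the orphan genes Slc22a18 and Slc22a23, and the pumps Abcc2 and Abcc6. Brightness also depends on each probe's sequence, so the levels of different genes are not ranked against each other. Hepatocyte identity was clear, since all 10 hepatocyte markers were above background on 6 arrays, with Alb at 8.99 in isoflurane and 8.96 in CO2/O2 livers. Of the kidney markers, Slc34a1 and Kap were above background on no array, Umod on 1 and Aqp2 on all 6.

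None of the 45 detected transporter genes differed between isoflurane and CO2/O2 livers past the threshold, a limma adjusted p of 0.05 over all 34637 tested probes. Over all named genes 0 of 10609 passed (0%), and over all tested probes 3 passed (0.00866%). The smallest adjusted p among transporters was 0.56, and 4 genes (8.89%) had an unadjusted p below 0.05, a share of 7.58% among all genes tested. Those 4 were Slco4a1, Abcb1b and Slco1b2, with lower means after isoflurane, and Abcg2, with a higher one. By direction, 4.85% of all genes had such a p with a lower mean and 2.72% with a higher mean. The groups did not overlap for 10 of the 45 genes (22.2%), against 14.2% of all genes. Means were higher after isoflurane for 25 genes and lower for 20, where 47.1% of all genes were higher. The median difference, isoflurane minus CO2/O2, was 0.02 over the transporters and -0.01 over all genes, and the median size of a difference was 0.15 against 0.11. Because liver is a mixed tissue, fewer cells of a type and less RNA per cell cannot be told apart in these values.

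The precision was enough to bound the difference of most transporters on each gene's brightest probe, which is used here. The 95% confidence interval of the difference lay within 2-fold in either direction for 38 of 45 genes (84.4%), against 90.5% of all genes, and its median half-width was 0.34 log2 units. By family this held for 10 of 10 Slco, 11 of 13 Slc22a, 7 of 7 Abcb, 7 of 9 Abcc and 3 of 6 Abcg genes. For the other 7 genes the interval reached past 2-fold. It also did so on another tested probe of some genes counted as within 2-fold. Those intervals were -2.89 to -0.81 for Abcb1b (A_64_P039888), -1.28 to 0.24 for Slco2b1, -0.04 to 1.29 for Abcc4 and -0.81 to 1.08 for Slc22a13.

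**Figure D2:**
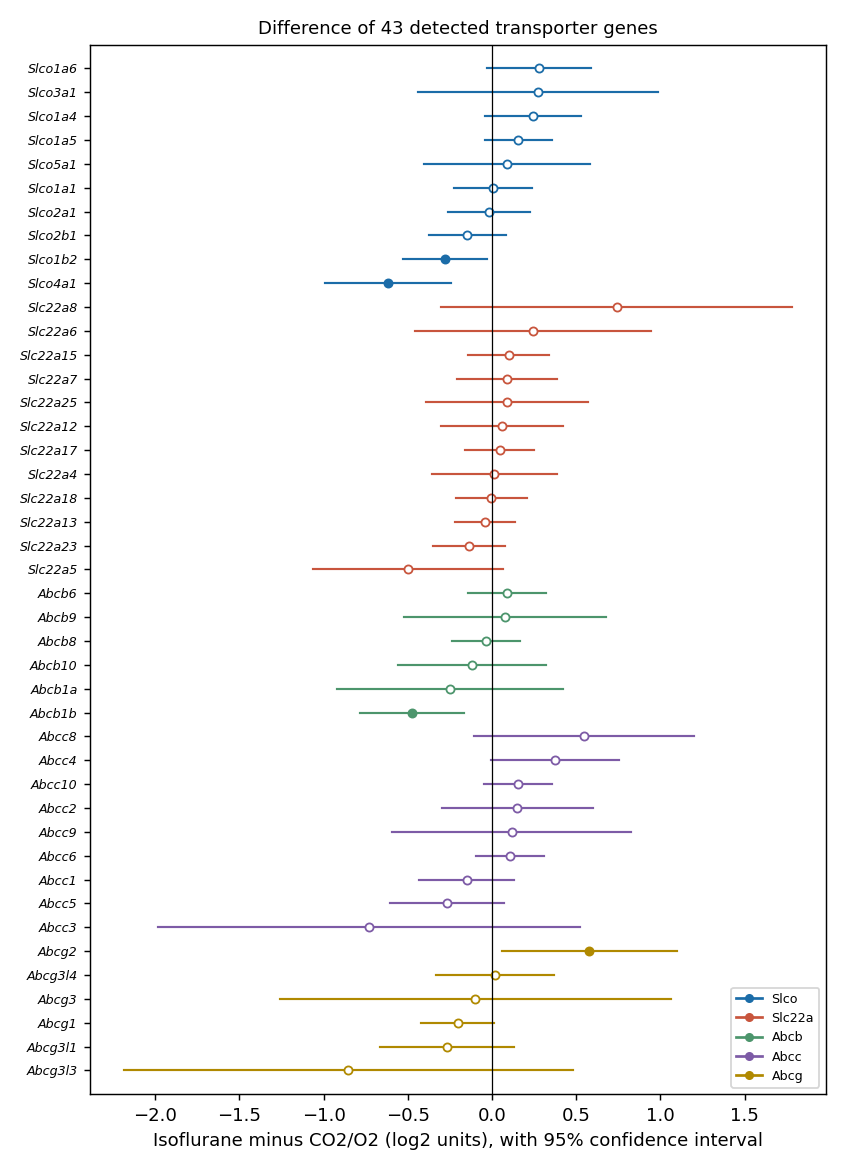
Difference, isoflurane minus CO2/O2 in log2 units (x axis), of 43 detected transporter genes (rows, coloured by family), with limma's 95% confidence interval. Filled points mark the 4 genes with an unadjusted p under 0.05, and the widest intervals belong to Abcg3l3, Abcc3, Abcg3 and Slc22a8.

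The 4 genes with the smallest p are given first with their promoter windows. They were picked by that p from these same data, in which none of them passed the threshold. Each window runs from 250 bases before the start of the gene to 50 after it, in RefSeq's assembly GRCr8, and capitals mark the motifs found on either strand.
Slco4a1 (chr3:187936632-187936931, plus strand): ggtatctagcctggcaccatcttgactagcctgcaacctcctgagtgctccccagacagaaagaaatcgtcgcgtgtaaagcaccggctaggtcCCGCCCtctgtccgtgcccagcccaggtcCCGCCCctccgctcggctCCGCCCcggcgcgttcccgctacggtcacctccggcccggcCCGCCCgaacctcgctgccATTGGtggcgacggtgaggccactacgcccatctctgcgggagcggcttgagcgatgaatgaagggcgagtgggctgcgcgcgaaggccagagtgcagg
Abcb1b (chr4:26279980-26280279, minus strand): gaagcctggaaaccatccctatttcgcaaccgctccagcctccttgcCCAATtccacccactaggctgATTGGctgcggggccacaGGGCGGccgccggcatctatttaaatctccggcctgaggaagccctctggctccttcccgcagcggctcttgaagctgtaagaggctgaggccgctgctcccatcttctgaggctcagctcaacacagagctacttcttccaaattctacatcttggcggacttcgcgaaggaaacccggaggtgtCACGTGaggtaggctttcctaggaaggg
Slco1b2 (chr4:176282334-176282633, plus strand): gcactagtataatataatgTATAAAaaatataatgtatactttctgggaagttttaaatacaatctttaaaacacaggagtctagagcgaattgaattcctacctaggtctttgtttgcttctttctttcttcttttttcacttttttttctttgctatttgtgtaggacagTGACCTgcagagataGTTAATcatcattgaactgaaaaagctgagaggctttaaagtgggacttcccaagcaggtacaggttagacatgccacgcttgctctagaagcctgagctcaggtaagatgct
Abcg2 (chr4:89075224-89075523, plus strand): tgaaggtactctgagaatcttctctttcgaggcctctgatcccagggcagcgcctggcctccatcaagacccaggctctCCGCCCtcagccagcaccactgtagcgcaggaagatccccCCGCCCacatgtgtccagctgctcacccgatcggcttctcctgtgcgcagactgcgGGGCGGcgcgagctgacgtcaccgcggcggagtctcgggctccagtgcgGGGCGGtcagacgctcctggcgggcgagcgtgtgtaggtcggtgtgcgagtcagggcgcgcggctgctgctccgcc

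The motifs searched on both strands were the HNF1 half-site GTTAAT, the nuclear receptor half-site AGGTCA, the antioxidant response core TGACNNNGC, the TATA box TATAAA, the CCAAT box, the GC box GGGCGG and the E-box CACGTG. No matches overlapped in these 4 windows. The Slco1b2 window held the HNF1 half-site, the nuclear receptor half-site and the letters of the TATA box once each, and no GC box. Those TATA box letters began at position -231 from the start of the gene. Those of Slco4a1 and Abcg2 held 4 GC boxes each, and Slco4a1 also had 1 CCAAT box. The Abcb1b window held 2 CCAAT boxes, 1 GC box and 1 E-box. Over 27457 rat promoter windows of the same length, 34.9% held a GC box, 37.7% a CCAAT box, 15.7% the nuclear receptor half-site, 14.3% a TATA box, 12.2% the antioxidant response core, 7.37% the HNF1 half-site and 6.65% the E-box. A window was found for 46 of the 56 transporter genes. A GC box was present in 23 of 37 detected members and in 1 of 9 undetected ones. The CCAAT box was in 15 of 37 and 1 of 9, and the HNF1 half-site in 5 of 37 and 1 of 9. Windows of all genes were not divided by detection, so these counts cannot be called particular to transporters. These are letter matches and not measured binding sites.

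Slco4a1 encodes a carrier of thyroid hormone and prostaglandins found in many tissues. Its signal was -3.12, -3.45 and -3.46 in isoflurane livers, against -2.59, -2.60 and -2.98 in CO2/O2 livers. Every isoflurane rat was below every CO2/O2 rat, with a log2 difference of -0.62 ± 0.15 (SE, n = 3 per group; limma adjusted p = 0.56), or 1.54-fold lower. The gene's other tested probe, A_44_P337125, showed 0.01 ± 0.11, and its values overlapped. Both probes were dim, and the difference was -0.26 with normexp background correction, -0.30 as the mean of both probes and -0.40 within slide rows.

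Abcb1b encodes a P-glycoprotein, the drug efflux pump of the canalicular membrane. Its brightest probe read 2.79, 2.81 and 3.08 in isoflurane livers, against 3.18, 3.45 and 3.47 in CO2/O2 livers. The groups did not overlap, and the difference was -0.48 ± 0.13 (SE, n = 3 per group; limma adjusted p = 0.569), 1.39-fold lower after isoflurane. A second probe, A_64_P039888, gave a wider gap, with -1.86, -0.89 and -1.40 in isoflurane livers, against -0.08, 1.36 and 0.13 in CO2/O2 livers. Its difference was -1.85 ± 0.43 (SE; limma adjusted p = 0.55), and the third probe had -0.46 ± 0.22 with overlapping groups. All 3 probes had lower means after isoflurane, by unequal amounts, and their mean gave -0.93. Abcb1a, the near-identical paralog, was dim, at -4.45, -4.39 and -3.65 in isoflurane livers, against -3.92, -4.29 and -3.54 in CO2/O2 livers, with overlap. It was above background on 2 of 3 isoflurane and 3 of 3 CO2/O2 arrays, and cross-hybridisation between the paralogs was not tested.

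Slco1b2 encodes Oatp1b2, the liver-specific uptake carrier for bilirubin, bile acids and statins in rodents. It measured 5.44, 5.25 and 5.28 in isoflurane livers, against 5.75, 5.52 and 5.54 in CO2/O2 livers. The groups did not overlap and the gap was small, at -0.28 ± 0.10 (SE, n = 3 per group; limma adjusted p = 0.644), or 1.21-fold lower. Only 1 probe carried this gene, so no second reading was available.

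Abcg2 encodes the breast cancer resistance protein, an efflux pump for sulphate conjugates, urate and many drugs. Its signal was 0.54, 0.90 and 0.95 in isoflurane livers, against -0.21, 0.39 and 0.48 in CO2/O2 livers. Isoflurane rats were all higher, by 0.58 ± 0.22 (SE, n = 3 per group; limma adjusted p = 0.644), or 1.49-fold. The other probe had 0.49 ± 0.26 with overlapping groups. CO2/O2 replicate 1 was the lowest rat on both probes, and without it the difference was 0.36, over 1.5 times smaller.

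**Figure D3:**
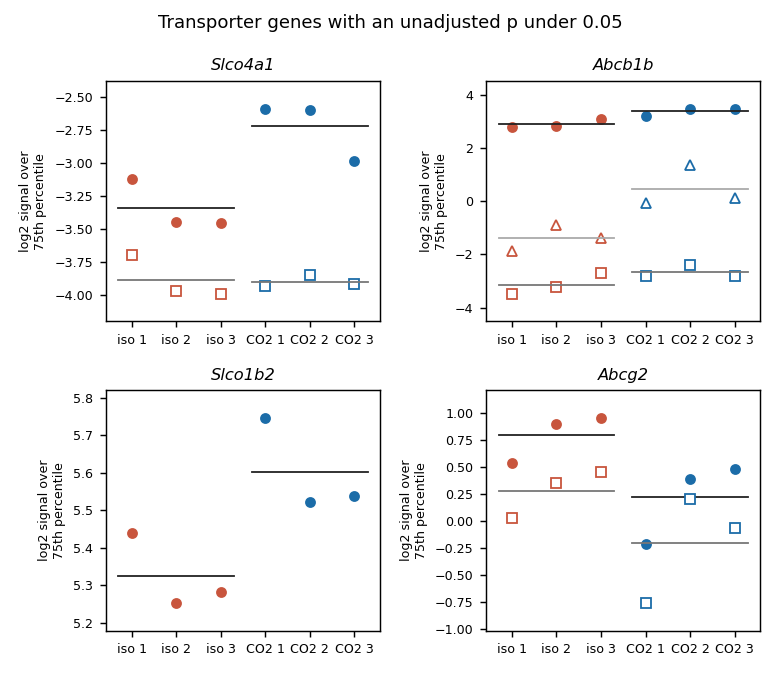
Signal per array (y axis, log2 relative to the 75th percentile) of Slco4a1, Abcb1b, Slco1b2 and Abcg2, with isoflurane rats (red) left of CO2/O2 rats (blue). Filled circles are each gene's brightest probe, open symbols its other tested probes, and lines are group means; the filled circles of the groups do not overlap in any of the 4 panels.

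Over all 10 detected Slco genes, Slco4a1 and Slco1b2 included, the median difference was 0.05, with 6 higher and 4 lower after isoflurane. Slco1a1, which encodes the sinusoidal carrier Oatp1a1, read 4.21, 4.04 and 4.02 in isoflurane livers, against 4.01, 4.07 and 4.18 in CO2/O2 livers. The groups coincided, with a difference of 0.0046 and a 95% interval of -0.23 to 0.24. Slco1a4, which encodes the digoxin carrier Oatp1a4, read 5.54, 5.69 and 5.89 in isoflurane livers, against 5.54, 5.50 and 5.34 in CO2/O2 livers. Isoflurane rats were narrowly higher, by 0.25 ± 0.12 (SE), and its 3 probes gave 0.23 to 0.34. Without isoflurane replicate 3 the difference was 0.16, and over the settings that kept all arrays it ran from 0.08 to 0.27. Slco1a5 was higher by 0.16 ± 0.082 (SE), also without overlap, at 0.57, 0.54 and 0.57 in isoflurane livers and 0.50, 0.38 and 0.34 in CO2/O2 livers. Slco1a6 had a difference of 0.28 ± 0.13 (SE) with overlap. Slco2b1, a broad uptake carrier of steroid sulphates, measured 2.58, 2.49 and 2.46 in isoflurane livers, against 2.75, 2.68 and 2.52 in CO2/O2 livers, a difference of -0.15 ± 0.095 (SE) with overlap and -0.52 on its other probe. The prostaglandin carrier Slco2a1 averaged 1.46 ± 0.13 in isoflurane and 1.48 ± 0.081 in CO2/O2 livers (SD, n = 3 each). Slco3a1 and Slco5a1 lay below the percentile, with differences of 0.27 ± 0.29 and 0.09 ± 0.20 (SE). That of Slco3a1 was 0.61 without CO2/O2 replicate 2 and 0.07 without CO2/O2 replicate 3.

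The Slc22a family had a median difference of 0.05, with 8 of 13 detected genes higher and 5 lower, and 0 with an unadjusted p under 0.05. Slc22a5, which encodes the carnitine carrier OCTN2, read -0.80, -1.22 and -0.30 in isoflurane livers, against -0.34, -0.11 and -0.38 in CO2/O2 livers. The lowest values were isoflurane replicates 1 and 2, while replicate 3 lay among the CO2/O2 rats, and the difference was -0.50 ± 0.23 (SE), or -0.27 without isoflurane replicate 2. The related ergothioneine carrier Slc22a4 had 0.01 ± 0.15 (SE).

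Of the organic anion carriers, Slc22a7 (OAT2) read 4.99, 5.33 and 5.33 in isoflurane livers, against 5.06, 5.23 and 5.08 in CO2/O2 livers, with overlap and a difference of 0.09 ± 0.12 (SE). Slc22a6 (OAT1) and Slc22a12, the urate carrier URAT1, are known mainly from kidney and lay below the percentile here. They averaged -1.77 ± 0.34 and -2.19 ± 0.11 in isoflurane livers and -2.01 ± 0.50 and -2.25 ± 0.26 in CO2/O2 livers (SD, n = 3 each). For each of them a second probe was not above background on any isoflurane array. The orphan genes Slc22a18 and Slc22a23 were bright and steady, at 7.17 ± 0.095 and 5.38 ± 0.063 in isoflurane livers and 7.17 ± 0.05 and 5.52 ± 0.089 in CO2/O2 livers (SD, n = 3 each). Slc22a23 read 5.41, 5.31 and 5.43 in isoflurane livers, against 5.45, 5.49 and 5.62 in CO2/O2 livers. Its groups did not overlap, with a difference of -0.14 ± 0.088 (SE), and its other probe gave -0.0079. Slc22a13, Slc22a15, Slc22a17 and Slc22a25 had differences between -0.04 and 0.10, and all of them overlapped.

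Beyond the P-glycoproteins, the Abcb genes encode carriers that work largely inside the cell. Abcb6, a porphyrin carrier, read 2.51, 2.63 and 2.68 in isoflurane livers, against 2.64, 2.44 and 2.47 in CO2/O2 livers. Its groups overlapped, with a difference of 0.09 ± 0.096 (SE). The mitochondrial carriers Abcb8 and Abcb10 and the lysosomal peptide carrier Abcb9 also overlapped, with -0.04 ± 0.084, -0.12 ± 0.18 and 0.08 ± 0.25 (SE). Over the 7 genes the median was -0.04.

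The Abcc genes encode conjugate pumps and regulators of potassium channels, and their median difference was 0.12 over 9 genes, 6 higher and 3 lower after isoflurane. Abcc2 (MRP2), which exports bilirubin glucuronides into bile, read 6.48, 6.18 and 5.78 in isoflurane livers, against 6.14, 5.96 and 5.90 in CO2/O2 livers. Its groups overlapped, with a difference of 0.15 ± 0.19 (SE). Abcc6 (MRP6), known for its role in preventing ectopic calcification, read 5.04, 5.09 and 4.98 in isoflurane livers, against 4.92, 4.86 and 5.01 in CO2/O2 livers, a difference of 0.11 ± 0.084 (SE) with overlap. Abcc4 (MRP4), a sinusoidal pump for bile acids and cyclic nucleotides, read -1.16, -0.76 and -0.69 in isoflurane livers, against -1.06, -1.31 and -1.36 in CO2/O2 livers. Its 4 probes were all higher on average after isoflurane, by 0.38 to 0.62, and each overlapped between groups. Within slide rows the difference of its brightest probe was 0.08. Abcc1 (MRP1) and the nucleotide pump Abcc5 (MRP5) had -0.15 ± 0.12 and -0.27 ± 0.14 (SE), each with the same sign on all tested probes. On omitting single arrays they ran from -0.24 to -0.09 for Abcc1 and from -0.38 to -0.17 for Abcc5. Within slide rows they were 0.02 for Abcc1 and -0.05 for Abcc5. The second Abcc5 probe had -0.37 ± 0.13 (SE, limma adjusted p = 0.615) without overlap. Abcc10 (MRP7) read -1.61, -1.52 and -1.63 in isoflurane livers, against -1.79, -1.66 and -1.77 in CO2/O2 livers, a difference of 0.15 ± 0.083 (SE) without overlap.

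Abcc8 and Abcc9 encode the sulphonylurea receptors SUR1 and SUR2, subunits of potassium channels that close on ATP. Abcc8 read 1.16, 1.68 and 0.74 in isoflurane livers, against 0.68, 0.94 and 0.32 in CO2/O2 livers, a difference of 0.55 ± 0.27 (SE) with overlap and 0.51 on its other probe. The difference was 0.31 without isoflurane replicate 2, its highest rat. The brightest Abcc9 probe had 0.12 ± 0.29 (SE), and a dim one, above background on 2 of 3 isoflurane arrays, had -0.49 ± 0.19 without overlap, so its probes gave opposite signs.

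Among Abcg genes, Abcg1, which moves cholesterol to high-density lipoprotein and is known from macrophages, read 1.86, 1.78 and 1.71 in isoflurane livers, against 1.94, 2.08 and 1.94 in CO2/O2 livers. The groups did not overlap, and the difference was -0.20 ± 0.088 (SE). Markers of Kupffer cells, the macrophages of liver, were lower in 11 of 11 members, with a mean level of 2.65 to 2.79 over isoflurane arrays and 2.85 to 3.23 over CO2/O2 arrays. Of the 11, 6 had an unadjusted p below 0.05, and the groups of those 6 did not overlap. Over all genes 4.85% had such a p with a lower mean, and 14.2% did not overlap. The Kupffer cell list's median was -0.33 and none of its markers passed the threshold. None of these markers was at background. Their part in the Abcg1 value was not tested. Abcg3 and the rat genes Abcg3l1, Abcg3l3 and Abcg3l4 are close relatives of each other, so their probes may share signal and their values are uncertain. Abcg3l1 and Abcg3l4 had differences of -0.27 ± 0.16 and 0.02 ± 0.14 (SE), with overlap.

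A few transporters varied widely between rats of the same group. The median within-group SD was 0.18 over the 45 genes, against 0.15 over all genes, and by family it was 0.13 for Slco, 0.15 for Slc22a, 0.16 for Abcb, 0.21 for Abcc and 0.27 for Abcg. The 5 genes with the widest range over the 6 rats were Abcc3, Abcg3l3, Slc22a8, Abcg3 and Abcc8, at 2.31, 2.10, 1.83, 1.69 and 1.36 log2 units.

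Abcc3 encodes MRP3, the pump that returns bilirubin and bile acid conjugates to blood. It read -1.94, -2.55 and -1.98 in isoflurane livers, against -0.23, -1.79 and -2.25 in CO2/O2 livers. CO2/O2 replicate 1 stood above all other rats, and the gene's other 2 probes showed the same rat highest, at -1.98 and -1.88. The difference was -0.73 ± 0.52 (SE) with that rat, -0.14 without it and -1.15 without CO2/O2 replicate 3.

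Slc22a8 encodes OAT3, an uptake carrier of organic anions. It read 5.97, 6.43 and 6.33 in isoflurane livers, against 4.60, 5.55 and 6.37 in CO2/O2 livers. The isoflurane rats were alike, the CO2/O2 rats were spread widely, and the second probe gave the same picture with 1.97, 2.41 and 2.35 in isoflurane livers and 0.59, 1.49 and 2.49 in CO2/O2 livers. The difference was 0.74 ± 0.43 (SE), 0.29 without CO2/O2 replicate 1 and 1.17 without CO2/O2 replicate 3. Slc22a24, an orphan relative, was above background on no isoflurane array and on 2 of 3 CO2/O2 arrays. One of its probes read -7.07, -6.16 and -5.75 in isoflurane livers, against -3.60, -4.72 and -5.82 in CO2/O2 livers. Both of its probes were brightest in CO2/O2 replicate 1, and no fold is given because the gene did not count as detected.

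Abcg3l3 read -3.35, -5.45 and -5.29 in isoflurane livers, against -3.74, -4.02 and -3.77 in CO2/O2 livers. Isoflurane replicate 1 was the highest of all rats, and the other isoflurane rats were the lowest; 1 of 3 isoflurane arrays and 3 of 3 CO2/O2 arrays were above background. The difference was -0.85 ± 0.55 (SE), -1.53 without isoflurane replicate 1, and -0.48 and -0.56 without isoflurane replicates 2 and 3. With normexp it was 0.00048. Within slide rows, where only isoflurane replicate 1 shares a row with CO2/O2 rats, it was 0.49. Abcg3 read 0.05, 1.74 and 1.53 in isoflurane livers, against 1.71, 0.85 and 1.06 in CO2/O2 livers. Isoflurane replicate 1 was the lowest rat there, whereas on the gene's other probe it was the highest, with a difference of 0.28 ± 0.15 (SE) and overlap. The difference on the brighter probe was -0.10, and 0.43 without isoflurane replicate 1.

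**Figure D4:**
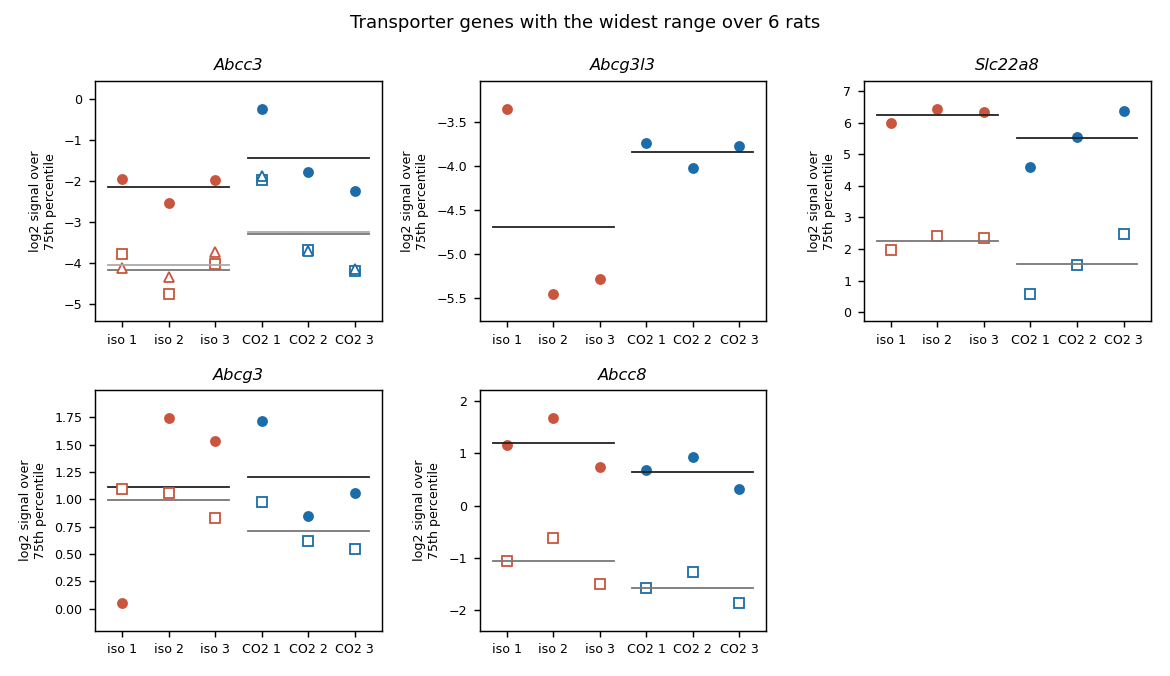
Signal per array (y axis, log2 relative to the 75th percentile) of the 5 transporter genes with the widest range over 6 rats, with isoflurane rats (red) left of CO2/O2 rats (blue). Filled circles are each gene's brightest probe, open symbols its other tested probes, and lines are group means; CO2/O2 replicate 1 is highest for Abcc3 and lowest for Slc22a8.

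CO2/O2 replicate 1 was the highest or the lowest of the 6 rats for 15 of 45 transporter genes (33.3%), against 30.8% of all genes. For CO2/O2 replicate 3 the shares were 40.0% and 30.4%. The family means by rat lay within 0.18 log2 units of the mean of all arrays. Slc22a genes averaged -0.05, 0.03 and 0.07 in isoflurane livers and -0.18, 0.01 and 0.11 in CO2/O2 livers. The Abcg mean was 0.01, -0.09 and -0.12 in isoflurane livers, against 0.14, 0.0011 and 0.07 in CO2/O2 livers, with overlap. The Abcb mean was -0.09, -0.11 and 0.05 in isoflurane livers, against 0.06, 0.02 and 0.07 in CO2/O2 livers, with overlap as well.

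**Figure D5:**
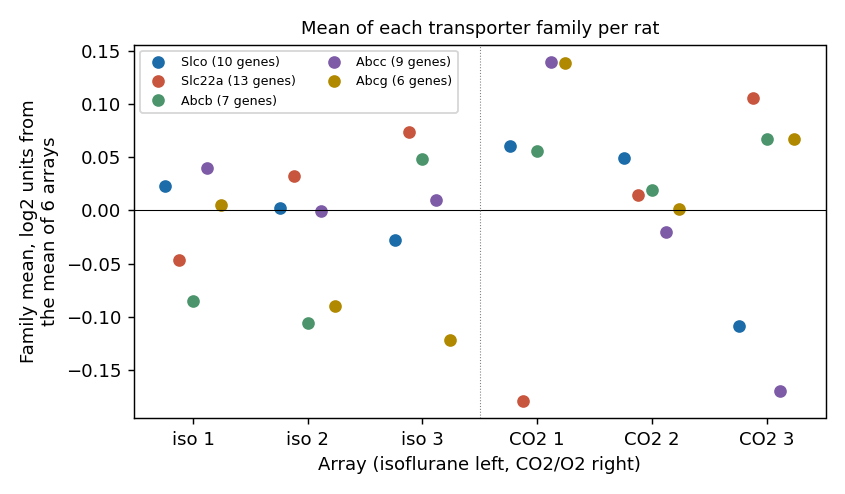
Mean over the detected genes of each family (y axis, log2 units from that gene's mean over 6 arrays) on each array (x axis, isoflurane left, CO2/O2 right). Points of all families lie between -0.18 and 0.14, and the groups overlap in every family.

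Probes of the same gene gave a check on direction. Of 23 transporter genes with several tested probes, 14 had the same sign of difference on all of them and 9 had mixed signs. In none of the 9 did probes differ by over 0.2 in both directions. Those 14 included Abcb1b, Abcc3, Abcc4, Abcg2, Slc22a5, Slc22a8 and Slco1a4.

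Genes that work with these transporters differed in both directions, and their list medians lay near 0. Of 12 other carriers tested, which include the 4 family members left out by the rule and the bile acid carrier Slc10a1, 5 were higher and 7 lower, with a median of -0.07. Atp7b, the copper pump, was the 1 with an unadjusted p under 0.05, at -0.32 ± 0.13 (SE, limma adjusted p = 0.652). The efflux carrier Slc47a1 was above background on no array. Of 16 regulators of transporter genes, among them the xenobiotic receptors Nr1i2 (PXR) and Nr1i3 (CAR), 6 were higher and 10 lower, with a median of -0.07. Ppara, the fatty acid receptor, was the 1 regulator with an unadjusted p under 0.05. It read 1.75, 1.80 and 1.97 in isoflurane livers, against 0.85, 1.18 and 1.60 in CO2/O2 livers, a difference of 0.63 ± 0.20 (SE, limma adjusted p = 0.596). Of 8 scaffold and membrane linker genes, 5 were higher and 3 lower, with a median of 0.03, and Msn had -0.41 ± 0.15 (SE, limma adjusted p = 0.634). None of these genes passed the threshold, and 7.58% of all genes tested had an unadjusted p under 0.05.

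Signal was well above background for 53.4% to 60.6% of probes on isoflurane arrays and for 56.9% to 62.3% on CO2/O2 arrays, and no spot was saturated. The lowest shares were those of isoflurane replicates 2 and 3, at 53.4% and 55.7%, which lie in slide row 2. Isoflurane replicate 1, at 60.6%, lies in slide row 1 with the CO2/O2 arrays. Slide row and anaesthesia are thus partly confounded. Markers of several non-hepatocyte cell types had lower means after isoflurane. Beside the Kupffer cell list these were 6 of 6 lymphocyte markers, with a mean level of -1.95 to -1.33 over isoflurane arrays and -1.34 to -1.07 over CO2/O2 arrays, and 4 of 4 erythroid markers, at 3.19 to 3.81 over isoflurane arrays and 3.73 to 4.22 over CO2/O2 arrays. Of 7 cholangiocyte markers 5 were lower, with a list mean of -1.35 to -1.27 over isoflurane arrays and -1.13 to -0.99 over CO2/O2 arrays. Their differences were uneven, from -1.19 for Spp1 to 0.19 for Slc4a2, with -0.02 for Krt19 and 0.08 for Epcam. Krt7 was dim, above background on 4 arrays. An unadjusted p below 0.05 was found for 2 lymphocyte, 2 erythroid and 1 cholangiocyte marker, and for 7.58% of all genes. None of these markers passed the threshold. In these lists no marker was below background on every array. Sinusoidal endothelial and stellate cell markers had medians of -0.06 and 0.0092. The part of these cells in the lower means of Slco4a1, Abcb1b and Slco1b2 was not tested. Hepatocyte markers had a median of -0.02, with 5 of 10 higher.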

How the data were processed

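Liver RNA of 6 rats was hybridised to 1-colour (Cy3) arrays, all on 1 slide. The submitters' processing notes name Agilent Feature Extraction 10.7. The deposited spot values are intensity values on a linear scale, corrected for background but not scaled between arrays, per the file headers. The deposited value table holds a ratio, not in logs. Compared with the spots, each column was the processed intensity over 1 number per array, whose origin the authors do not state in the labels. On every array that number lay close to the 75th percentile used here. It was 998.2 against 997.2 for CO2/O2 replicate 1 and 922.7 against 921.4 for isoflurane replicate 1.

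From the processed intensity, log2 values were taken and each array's 75th percentile over 61657 non-control probes was subtracted. The 177 outlier-marked spots, 1 of them in a transporter probe, were left out of the values but not of the detection calls. Probes well above background in every rat of a group were tested with limma 3.58.1 (R 4.3.3), with Benjamini-Hochberg adjustment over all tested probes and a threshold of 0.05. The code was tested on simulated data. Tables and plots used Python 3.11.15, pandas 2.3.3, numpy 2.4.6 and matplotlib 3.10.9. The number of arrays limits the precision.

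Accessions without version were matched to RefSeq genes (GRCr8), for names and promoter windows, since the array headers name another build; 27460 probes matched and 34197 did not. A gene is represented by its tested probe of highest mean. Members and lists were chosen with earlier results of these data known. Values are given for members detected on all 6 arrays, with an unadjusted p below 0.05, without overlap, with detection differing by 2 or more arrays, or among the 5 widest ranges, and for genes of the carrier, regulator and scaffold lists with such a p; arrays are listed singly for the members with such a p, no overlap or wide range and for others with a well described role in liver. Other values named, as for Alb and second probes, were chosen after they were seen. A few genes that this rule takes are not reported here. Alternatives were normexp (offset 50), quantile normalization, centring on medians, the deposited table, other filters on dim probes, outlier spots retained, a trended robust eBayes, blocks for replicate number and for slide row, averaging of probes, other detection calls, and omission of each array. The deposited table has nearly the same scaling as the main fit, so its outcome was bound to be close and is no separate check.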

Additional observations from a re-analysis of the deposited data

How the results depend on the processing

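The count of transporter genes past the threshold was 0 in every setting run. The count at an unadjusted p under 0.05, 4, was 7 with eBayes trend and robust, and 2 to 9 on omitting single arrays (9 on omitting isoflurane replicate 1 and 2 on omitting isoflurane replicate 2). Probes past the threshold numbered 3, and 1 with no filter on dim probes, 5 with normexp, 5 with eBayes trend and robust, 0 with the replicate block, in which 5 transporter genes had an unadjusted p below 0.05, and 1 to 20 on omitting single arrays (20 for CO2/O2 replicate 3, 17 for isoflurane replicate 1, 5 for isoflurane replicate 2, and 1 for CO2/O2 replicate 1 and for isoflurane replicate 3). Same-numbered arrays deviated together with r of 0.11, 0.02 and 0.06 over probes, so the numbers were not taken as pairs. Family medians moved by more than the spread between rats for Slco with no filter (0.20, as undetected genes enter), for Abcb on averaging probes (0.041), and for Abcg with normexp (-0.061) and the slide row block (0.044). On omitting single arrays the family medians ran as Slco -0.014 to 0.094, Slc22a 0.0016 to 0.038, Abcb -0.067 to 0.012, Abcc 0.073 to 0.14, Abcg -0.20 to -0.068, the Abcg value being -0.068 without CO2/O2 replicate 1. In the row block only isoflurane replicate 1 shares a row with CO2/O2 rats. Median centring moved all genes by -0.06. No detection count moved by over 1.5 times, and 43 to 50 genes were detected under the other calls.

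Of the 45 genes, none called in any setting, 17 changed sign in some setting and 14 on omitting single arrays; the cause was not tested, and those reported here follow. Omitting a single array moved the difference by over 1.5 times for 35 of the 45. With probes averaged Abcb10 0.067, Abcc9 -0.18, Abcg3 0.091, Abcg3l4 -0.040, Slc22a13 0.047, Slc22a18 0.055. Within slide rows Abcb6 -0.00045, Abcc1 0.019, Abcc9 -0.26, Abcg3l1 0.10, Abcg3l3 0.49, Abcg3l4 -0.0079, Slc22a4 -0.039, Slc22a6 -0.15, Slc22a7 -0.13. With normexp Abcg3l3 0.00048, Slc22a13 0.0069. With median centring Abcg3l4 -0.039, Slc22a12 -0.0015, Slc22a17 -0.014, Slc22a4 -0.046, Slco1a1 -0.055. With quantile normalization Slc22a18 0.0070. On omitting single arrays the signs differed for Abcb10 -0.25 to 0.038, Abcb8 -0.067 to 0.012, Abcb9 -0.18 to 0.23, Abcc2 -0.015 to 0.33, Abcc9 -0.22 to 0.30, Abcg3 -0.42 to 0.43, Abcg3l4 -0.068 to 0.16, Slc22a12 -0.074 to 0.19, Slc22a18 -0.046 to 0.048, Slc22a25 -0.11 to 0.27, Slc22a4 -0.14 to 0.14, Slco1a1 -0.055 to 0.053, Slco2a1 -0.086 to 0.038, Slco5a1 -0.032 to 0.30. Signal close to background limits Abcb1a and Abcg3l3, which were not above it on all 6 arrays.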
